A study of Mus musculus with 12 samples.

Results

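Selective autophagy receptors are proteins that hold a cargo with one surface and a lipidated ATG8 protein, such as LC3B or GABARAP, with another, so that the cargo is enclosed by the growing autophagosome. The mRNA of 10 of them was followed here across all 4 conditions of an RNA-Seq experiment in mouse embryonic fibroblasts (MEFs). They are Sqstm1 (the gene of p62), Nbr1, Optn, Tax1bp1, Calcoco1, Tollip, Wdfy3, Bnip3, Bnip3l and Ncoa4, taken by gene symbol from a table of 24062 symbols, and all 10 passed the filter on low counts. They were picked by name, with earlier results of these data known.

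The cells expressed either shRenilla, a hairpin against a luciferase that mouse cells do not have, or shBruce#1, a hairpin against Birc6, which encodes BRUCE, a very large member of the inhibitor of apoptosis family with ubiquitin-conjugating activity. Each line was kept in full medium (FM) or for 2 h in a medium without serum and amino acids (Starv), and each of the 4 groups has 3 libraries. Each hairpin is represented by a single line, so a difference between the lines cannot be told apart from a difference between these particular cultures of cells. The labels do not say that replicates are separate cultures, and p-values then measure only the spread between these libraries.

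Total counts per library ran from 7717265 in shBruce Starv replicate 1 to 18510540 in shRenilla FM replicate 1. Birc6 itself had 4339 ± 942 normalized read counts in shRenilla FM and 1287 ± 93.7 in shBruce FM (SD, n = 3), with 4086 ± 1125 and 1035 ± 288 in the starved lines, and no shBruce library reached the lowest shRenilla library. The 12 fibroblast markers summed to between 9870 and 15400 RPM (reads scaled to library size) in every library, with Col1a1, Vim and Fn1 high, while Thy1 and Lum reached at most 2.45 normalized read counts. Epithelial markers summed to at most 3.32 RPM, leukocyte markers to 9.82, endothelial markers to 4.38 and muscle markers to 2.07, with Cd3e at 0 in every library. The neural list reached 28.7 RPM, nearly all of it Tubb3, which rose on starvation in both lines. Between the starved lines S100a4 of the fibroblast list (log2 fold change 1.16) and Ptprc of the leukocyte list (1.52, at no more than 18.2 normalized read counts in any library) were higher in shBruce MEFs, and Cd68 fell on starvation of that line (-0.65). The part of these in the receptor values was not tested, and in bulk RNA fewer cells of a kind and less RNA per cell cannot be told apart.

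As background, p62 gathers ubiquitylated proteins into condensates and is itself degraded with them, and NBR1 helps it to do so. OPTN, TAX1BP1 and TOLLIP also bind ubiquitin and act on damaged mitochondria, bacteria or protein aggregates, and CALCOCO1 serves turnover of the endoplasmic reticulum and Golgi. WDFY3, also called ALFY, is a large scaffold for aggregate clearance. BNIP3 and BNIP3L (NIX) sit in the outer mitochondrial membrane and their genes respond to hypoxia-inducible factor (HIF), and NCOA4 brings ferritin to the autophagosome for iron release.

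The knockdown line carries the designed guide strand printed here to show what was targeted, as named in the hairpin library, 5′ to 3′.

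Birc6.766: ttttaaaccatctttgagctgt

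The sequences just upstream of the RefSeq start sites are shown for Sqstm1 and Calcoco1, because the mRNA of both changed on starvation, and for Bnip3, because it alone among the receptor genes with an entry had an E-box there. The mRNA of Nbr1 changed on starvation as well, and its sequence is not printed. They come from RefSeq on GRCm38.p6, in which 8 of the 10 genes had an entry, with 12 start sites in all. Each is printed on the strand of its gene, and stretches that overlap annotated exons were left off. Capitals mark GC boxes (GGGCGG or its reverse complement CCGCCC) and the E-box CACGTG, which reads the same on both strands and contains the core of a HIF site, ACGTG.

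Sqstm1, chr11:50210828-50210889, minus strand, 69 to 8 bases before the start: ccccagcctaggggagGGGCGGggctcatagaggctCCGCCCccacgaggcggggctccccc

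Calcoco1, chr15:102722179-102722428, minus strand, 250 to 1 bases before the start: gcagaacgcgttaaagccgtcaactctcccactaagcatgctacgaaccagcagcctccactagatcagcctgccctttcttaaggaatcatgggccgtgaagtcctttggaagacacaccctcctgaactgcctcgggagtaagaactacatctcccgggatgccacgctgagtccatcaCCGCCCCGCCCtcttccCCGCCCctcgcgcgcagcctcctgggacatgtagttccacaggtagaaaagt

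Bnip3, chr7:138909520-138909756, minus strand, 250 to 14 bases before the start: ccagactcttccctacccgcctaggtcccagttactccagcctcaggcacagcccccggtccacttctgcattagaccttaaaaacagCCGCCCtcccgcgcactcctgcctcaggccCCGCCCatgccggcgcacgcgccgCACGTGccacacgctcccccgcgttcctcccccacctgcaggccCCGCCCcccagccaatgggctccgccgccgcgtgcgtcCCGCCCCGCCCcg

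The Sqstm1 stretch held 2 GC boxes, the Calcoco1 stretch 3 and the Bnip3 stretch 5 with 1 E-box, counting overlapping boxes separately. Over the 250 bases before each start, a GC box was found upstream of 6 of the 8 genes, against 32.7% of all 32851 promoters of that length. Nbr1, whose mRNA also changed on starvation, and Tax1bp1 had 0 GC boxes at each of their start sites. The E-box was found for 1 of 8 genes, against 6.02% of promoters, and ACGTG for 4 (Nbr1, Tax1bp1, Bnip3 and Ncoa4), against 16.6%. The FOXO sequence GTAAACA was found for 0 of 8 genes, against 3.17%, and the antioxidant response sequence TGACNNNGC for 2 (Tax1bp1 and Ncoa4), against 10.2%. Several of these genes have more than 1 start site in the table, which gives them more chances of a match, and a match is a description of the letters only.

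To place the receptors relative to each other, read counts were divided by the length of the longest annotated transcript. That length was not reduced for stretches shared with other genes, which are most frequent in Bnip3 (62.4% of its stretches of 50 bases). Sqstm1 stood first in every condition, at 158.1 ± 10.8 RPM per kilobase in shRenilla FM and 391.4 ± 31.7 in shBruce Starv (SD, n = 3). It made up 51% of the summed level of the 10 genes in shRenilla FM, 55.5% in shBruce FM, 60.4% in shRenilla Starv and 66% in shBruce Starv. Ncoa4 stood last throughout, with group means between 0.795 and 1.40 RPM per kilobase.

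In shRenilla FM, Tax1bp1 (42.2 RPM per kilobase) came after Sqstm1, followed by Bnip3l (29.1) and Nbr1 (27.7), whose libraries overlapped, and then by Tollip (22.5). Optn (8.32), Calcoco1 (7.46), Bnip3 (6.98) and Wdfy3 (6.07) formed a lower tier in which each overlapped the next. After starvation of the same line Nbr1 (52.2) had passed Tax1bp1 (43.7), with no overlap between their libraries. In shBruce Starv the levels of Bnip3l, Tax1bp1 and Nbr1 overlapped each other in turn, at 54.7, 45.7 and 41.4 RPM per kilobase.

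**Figure D1:**
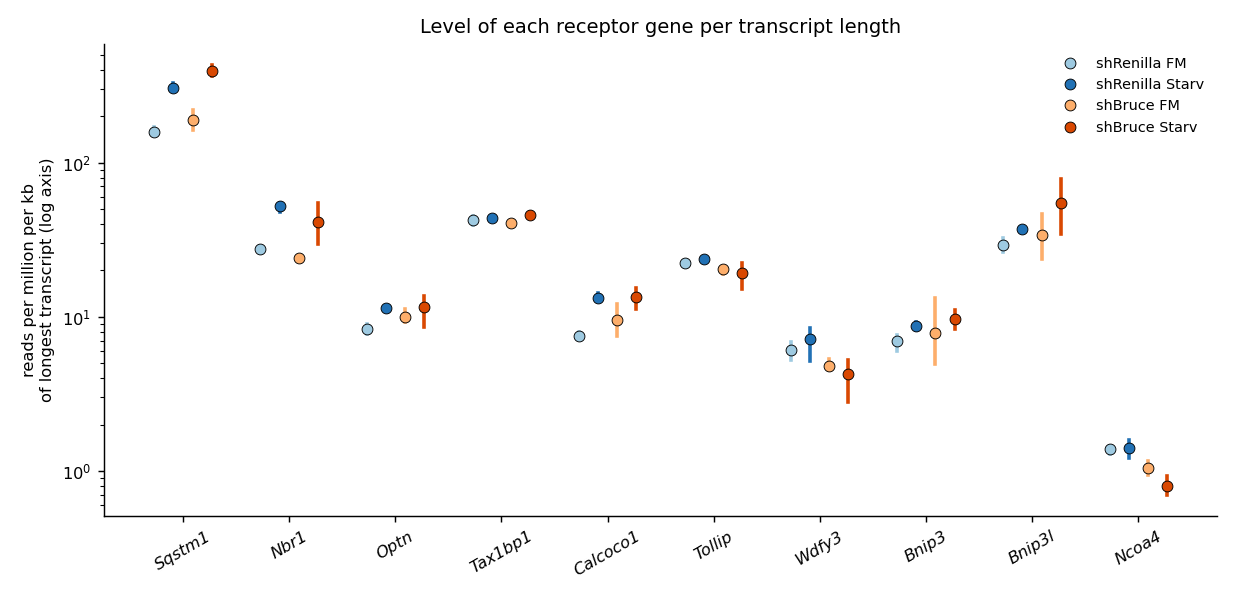
Level of the 10 receptor genes in RPM per kilobase of the longest transcript, on a log axis, with a point for the mean of 3 libraries and a bar from the lowest to the highest library, for each of the 4 conditions. Sqstm1 lies above all others in every condition (158.1 to 391.4) and Ncoa4 below them (0.795 to 1.40).

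On GRCm38, GENCODE places Sqstm1 at chr11:50199366-50210827 (minus strand), Nbr1 at chr11:101552149-101581951 (plus strand) and Calcoco1 at chr15:102706777-102722178 (minus strand). Wdfy3 lies at chr5:101832956-102069921 (minus strand) and Ncoa4 at chr14:32159865-32179855 (plus strand), and the counts cover the exons of each gene. Some of these counts could include reads of other loci. Of the stretches of 50 bases in the longest Bnip3 transcript, 62.4% also occur in other genes, mostly in the pseudogene-like locus AC160336.1 (44.9%), and 22.3% of the exon bases of Bnip3 lie opposite Gm45507. For Bnip3l, 23.4% of the stretches are shared with Bnip3l-ps. For Sqstm1, 20.4% are shared with Mrnip, which overlaps 17.3% of its exon bases on the opposite strand, and the strand setting of the counting is not given in the sources used here. Wdfy3 shared 2.9%, Optn 1.0%, and the other 5 genes 0%.

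On starvation of the control line 3 of the 10 receptor mRNAs rose, Sqstm1, Nbr1 and Calcoco1, each by between 1.79-fold and 1.93-fold, and none fell at the adjusted level of 0.05. Over all 12154 genes tested in this comparison 17.0% were called, and 9.69% were called higher, beside 3 of 10 receptors, a count too small to set the receptors apart. The 2061 genes called became 1149 to 1499 when a shRenilla library was left out. The median log2 fold change of the 10 was 0.34, beside -0.01 over all genes. All 10 estimates lay above 0, but those of Ncoa4 (0.02) and Tax1bp1 (0.05) changed sign in some alternative analyses. Libraries of the 2 media did not overlap for 7 of the 10 genes, while 52.4% of all genes showed such a separation.

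Sqstm1 had 5923, 6659 and 5940 normalized read counts in the shRenilla FM libraries and 11591, 11333 and 12779 in the shRenilla Starv libraries. The starved libraries all lay far above those in FM. The log2 fold change was 0.95 with a standard error of 0.13 (adjusted p = 3.3e-04, edgeR quasi-likelihood test with Benjamini-Hochberg adjustment).

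Nbr1, the partner of p62 in cargo condensation, had 2005, 1812 and 1998 normalized read counts in shRenilla FM and 3801, 3812 and 3342 in shRenilla Starv. Its groups were likewise apart, and the log2 fold change was 0.91 ± 0.17 (SE, edgeR adjusted p = 0.00307). Calcoco1 went from 310, 344 and 315 to 619, 569 and 545 normalized read counts, again without overlap, with a log2 fold change of 0.84 ± 0.17 (SE, edgeR adjusted p = 0.00467). All 3 calls were kept in each of the 22 alternative analyses, and the exact permutation test gave each the smallest p that 3 libraries against 3 allow, 0.1.

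Optn, the receptor best known from damaged mitochondria and bacteria, had 318, 294 and 341 normalized read counts in shRenilla FM and 444, 445 and 417 in shRenilla Starv. These groups did not overlap either, but the log2 fold change of 0.45 ± 0.16 (SE) missed the level (edgeR adjusted p = 0.0696) and passed it in 6 of 22 alternatives. Among the mitochondrial receptors, Bnip3l had 1542, 1260 and 1348 normalized read counts in FM and 1783, 1752 and 1788 in Starv. Bnip3 had 186, 155 and 196, and then 224, 238 and 211.

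For both genes the starved libraries lay above those in FM, with log2 fold changes of 0.36 (95% confidence interval -0.21 to 0.93) for Bnip3l and 0.33 (-0.31 to 0.96) for Bnip3 that did not pass the test. When only the 6 shRenilla libraries were fitted, Bnip3l (adjusted p = 0.00602), Bnip3 (0.0329) and Optn were called as well, which makes 6 of 10, but calls over all genes rose alongside, to 5013 of 11954. Tax1bp1 (0.05, -0.16 to 0.26), Tollip (0.09, -0.20 to 0.37), Wdfy3 (0.25, -0.24 to 0.73) and Ncoa4 (0.02, -0.34 to 0.38) had log2 fold changes nearer 0. Tax1bp1 was the steadiest of all 10 genes, with group means between 2533 and 2837 normalized read counts over the 4 conditions.

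**Figure D2:**
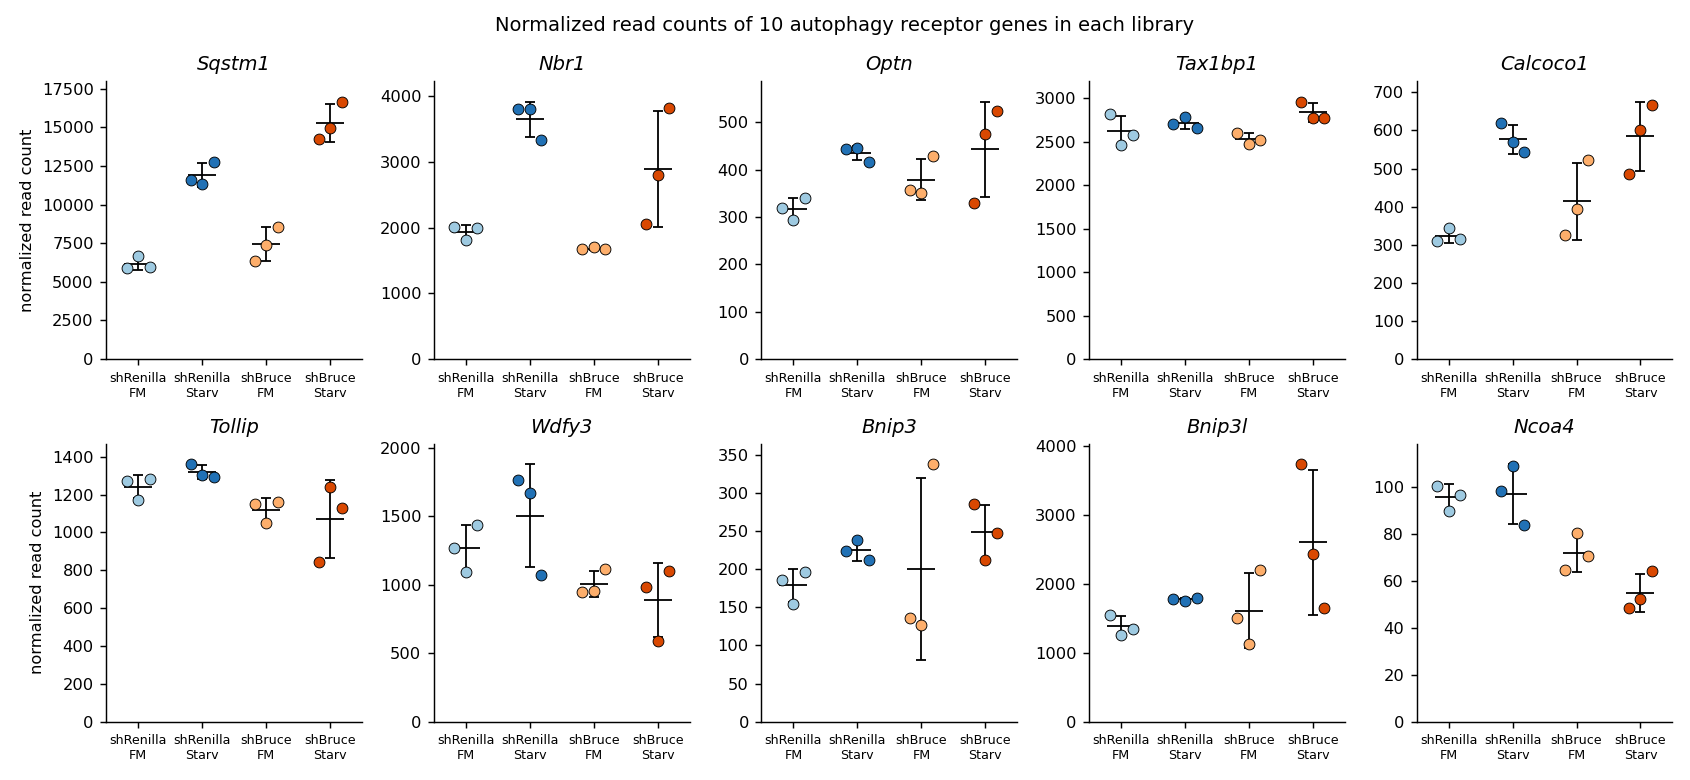
Normalized read counts of the 10 receptor genes, a panel for each gene with its own axis from 0, with a point for each library (replicates 1 to 3 from left to right) and black bars for the mean and SD of 3 libraries in each condition. Sqstm1, Nbr1 and Calcoco1 in the control line separate by medium, while in shBruce FM Bnip3 has a single high library at 337.

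The same 3 genes were called higher on starvation of the knockdown line, Sqstm1 by 2.06-fold, Nbr1 by 1.73-fold and Calcoco1 by 1.42-fold. The background here was 23.0% of all genes called and 12.4% called higher, beside 3 of 10 receptors. The median log2 fold change of the 10 receptors was 0.27, beside 0.02 over all genes, and 7 of the 10 estimates lay above 0. Libraries of the 2 media did not overlap for 4 of the 10 genes (Sqstm1, Nbr1, Tax1bp1 and Ncoa4), beside 30.9% of all genes.

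Sqstm1 had 6367, 7365 and 8555 normalized read counts in shBruce FM and 14265, 14926 and 16659 in shBruce Starv. The lowest starved library was well above the highest FM library. The log2 fold change was 1.04 ± 0.13 (SE, edgeR adjusted p = 1.3e-04), a 2.06-fold rise that was called in all 22 alternatives.

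Nbr1 had 1669, 1700 and 1674 normalized read counts in shBruce FM and 2061, 2807 and 3822 in shBruce Starv. The FM libraries lay within a coefficient of variation of 1.0%, and the starved ones, all higher, spread over 30.5%. The log2 fold change was 0.79 ± 0.17 (SE, edgeR adjusted p = 0.00596), and the call was lost in 1 of 22 alternatives, the fit of the 6 shBruce libraries alone (adjusted p = 0.0567).

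Calcoco1 had 325, 394 and 523 normalized read counts in shBruce FM and 486, 602 and 666 in shBruce Starv, so that the highest FM library lay above the lowest starved one. Its log2 fold change of 0.50 ± 0.17 (SE) stood just inside the level (edgeR adjusted p = 0.0489), and only 9 of 22 alternatives called it. The call was lost when any of the 6 shRenilla libraries was left out (adjusted p from 0.063 to 0.0728), although these do not enter the difference itself, and also without shBruce FM replicate 1 (0.19) or 2 (0.141) or shBruce Starv replicate 2 (0.0928) or 3 (0.101).

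Bnip3l had 1506, 1131 and 2204 normalized read counts in shBruce FM and 3734, 2427 and 1646 in shBruce Starv. These ranges overlapped, since the lowest starved library lay below the highest FM library. The log2 fold change of 0.69 ± 0.26 (SE) missed the level (edgeR adjusted p = 0.0791). Bnip3 had 136, 127 and 337 normalized read counts in shBruce FM and 285, 212 and 247 in shBruce Starv, with a log2 fold change of 0.30 (95% confidence interval -0.34 to 0.95).

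The FM library that is high for both genes is shBruce FM replicate 3. Against the mean of the other 2 libraries of its group it was higher by 1.35 on the log2 scale for Bnip3, 0.76 for Bnip3l, 0.54 for Calcoco1 and 0.32 for Sqstm1. In that library 15 of 18 HIF target genes, 10 of 10 NRF2 target genes and 5 of 5 ATG8 genes also lay above the others. Their median differences were 0.38, 0.29 and 0.29, beside 0.01 over all genes. The part of HIF or NRF2 in the receptor values was not tested. Without it, starvation of the knockdown line gave calls for 5 of 10 receptors, with log2 fold changes of 0.91 for Bnip3 and 0.97 for Bnip3l beside Sqstm1, Nbr1 and Calcoco1, and for 2578 of 12311 genes in all.

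The spread within shBruce Starv had an order of its own. Replicate 1, the smallest library, lay 0.90 higher than the mean of the other 2 for Bnip3l and 0.67 and 0.60 lower for Nbr1 and Optn, on the log2 scale. Replicate 3 lay 0.87 lower for Bnip3l and 0.67 and 0.40 higher for Nbr1 and Optn. Tax1bp1 differed by at most 0.09 in any of these 3 libraries.

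Optn (0.23, 95% confidence interval -0.12 to 0.58), Tax1bp1 (0.16, -0.05 to 0.37), Tollip (-0.06, -0.35 to 0.23), Wdfy3 (-0.18, -0.67 to 0.31) and Ncoa4 (-0.37, -0.77 to 0.03) did not pass the test on starvation of the knockdown line. Ncoa4 is the gene of these whose libraries separated downwards, from 64.8, 80.6 and 70.4 normalized read counts in shBruce FM to 48.5, 52.3 and 64.1 in shBruce Starv.

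**Figure D3:**
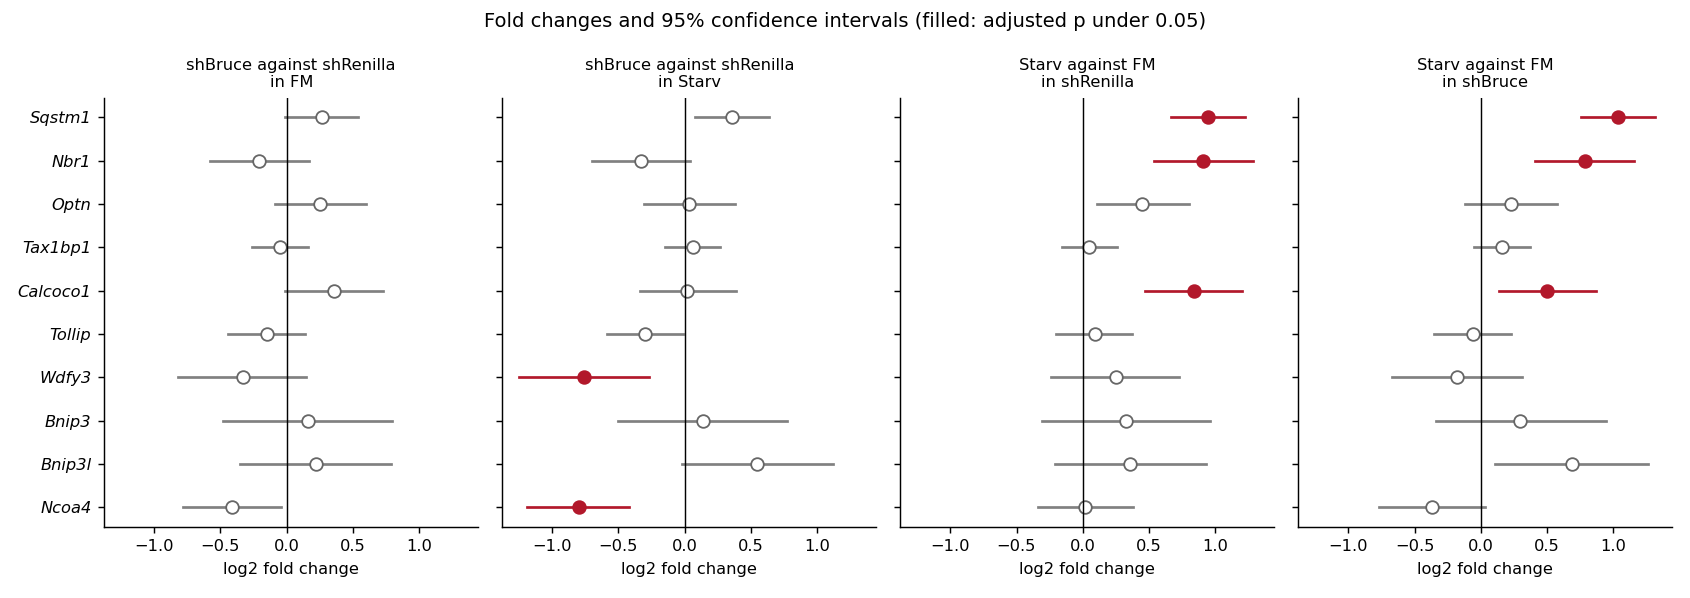
Log2 fold changes of the 10 receptor genes in the 4 comparisons, with 95% confidence intervals from the fit of all 12 libraries, filled red where the adjusted p is under 0.05. Sqstm1, Nbr1 and Calcoco1 are filled on starvation of either line, and Wdfy3 and Ncoa4 are filled, below 0, between the starved lines.

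Whether starvation acted differently in the 2 lines was tested with the interaction of line and medium. None of the 10 receptors was called by edgeR, DESeq2 or limma-voom, 0 had an unadjusted p under 0.05, and over all genes 0% were called, with 474 of 12154 at an unadjusted p under 0.05. For Sqstm1 the difference of the 2 log2 fold changes was 0.09 (95% confidence interval -0.30 to 0.49), for Nbr1 -0.13 (-0.65 to 0.40) and for Calcoco1 -0.33 (-0.85 to 0.18). The interval of Calcoco1 leaves room for a difference about as large as its own starvation change in shRenilla MEFs (0.84). Those of Sqstm1 and Nbr1 also leave room for differences, but smaller than their own changes.

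In FM, no receptor was called between shBruce and shRenilla MEFs by edgeR, DESeq2 or limma-voom. The background was 0% of all genes by edgeR, with 1750 of 12154 at an unadjusted p under 0.05, and DESeq2 called 76 genes and limma-voom 0. A fit of the 6 FM libraries alone called 597 of 11680 genes and no receptor. Birc6, the target of the hairpin, was itself not called in FM at a log2 fold change of -1.75 (edgeR adjusted p = 0.0627), so a missing call in this comparison says little. Ncoa4 was the 1 receptor with an unadjusted p under 0.05, with 100, 89.6 and 96.8 normalized read counts in shRenilla FM against 64.8, 80.6 and 70.4 in shBruce FM and a log2 fold change of -0.41 ± 0.17 (SE, edgeR adjusted p = 0.321).

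Libraries of the 2 lines in FM did not overlap for 4 of 10 receptors (Nbr1, Optn, Tollip and Ncoa4), beside 33.4% of all genes. Log2 fold changes of the other receptors ran from -0.33 for Wdfy3 to 0.36 for Calcoco1. The estimates for Bnip3 (0.16) and Bnip3l (0.22) turned to -0.45 and -0.07 without shBruce FM replicate 3.

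Between the starved lines, 2 of the 10 receptors were lower in shBruce MEFs, Ncoa4 by 1.74-fold and Wdfy3 by 1.69-fold, and none was called higher. Among all genes 23.9% were called in this comparison and 11.2% were called lower, so that 2 of 10 receptors is close to the background. That background hangs on single libraries: of 2907 genes called, 0 were left without shRenilla Starv replicate 1 or 2, 15 without shBruce Starv replicate 2 and 573 without its replicate 1, while 5735 were called without its replicate 3. The median log2 fold change was 0.03 over the receptors and 0.00 over all genes, and 3 of 10 receptors (Sqstm1, Tollip and Ncoa4) had libraries that did not overlap, beside 34.9% of all genes.

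Ncoa4, the ferritin receptor, had 98.2, 109 and 83.8 normalized read counts in shRenilla Starv and 48.5, 52.3 and 64.1 in shBruce Starv. All shBruce libraries lay below all shRenilla libraries, and the log2 fold change was -0.80 ± 0.18 (SE, edgeR adjusted p = 0.0225). Behind the lowest of these values stand 24 reads, in shBruce Starv replicate 1. Counted against Tax1bp1 in the same library, which needs no scaling between libraries, there were 0.0357 ± 0.0039 reads of Ncoa4 per read of Tax1bp1 in shRenilla Starv and 0.0194 ± 0.00342 in shBruce Starv (SD, n = 3).

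Wdfy3, the aggregate scaffold with a transcript of 14274 bases, had 1766, 1672 and 1072 normalized read counts in shRenilla Starv and 981, 588 and 1099 in shBruce Starv. The groups overlapped, since the lowest control library lay below the highest knockdown library. The log2 fold change was -0.76 ± 0.23 (SE, edgeR adjusted p = 0.0332).

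Each of these 2 calls held in 16 of 22 alternatives. Wdfy3 lost its call without shRenilla Starv replicate 1 (log2 fold change -0.63, adjusted p = 0.139) or 2 (-0.68, 0.132) or shBruce Starv replicate 1 (-0.85, 0.0648) or 2 (-0.53, 0.0959). Ncoa4 lost its call without shRenilla Starv replicate 1 (-0.80, 0.11) or 2 (-0.71, 0.115) or shBruce Starv replicate 2 (-0.76, 0.053).

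The starved libraries also differed in how counts depended on transcript length. Relative to the mean over all libraries, log2 counts changed per doubling of length by 0.21, 0.204 and 0.034 in shRenilla Starv and by -0.171, -0.229 and 0.038 in shBruce Starv. The libraries with the highest Wdfy3 counts (shRenilla Starv replicates 1 and 2) had the most positive trends, and the library with the lowest count (shBruce Starv replicate 2) had the most negative.

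With trends of length and GC content removed from each library, the log2 fold change of Wdfy3 between the starved lines was -0.39 (adjusted p = 0.0497) and that of Ncoa4 -0.52 (adjusted p = 0.0507). That of Sqstm1 fell to 0.17, and Tax1bp1 was then called higher at 0.41 (adjusted p = 0.0438). The reads of Ncoa4 per read of Tax1bp1 given above keep the trends of their library, and they also move with Tax1bp1. The starvation calls of Sqstm1, Nbr1 and Calcoco1 in both lines remained with the trends removed.

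**Figure D4:**
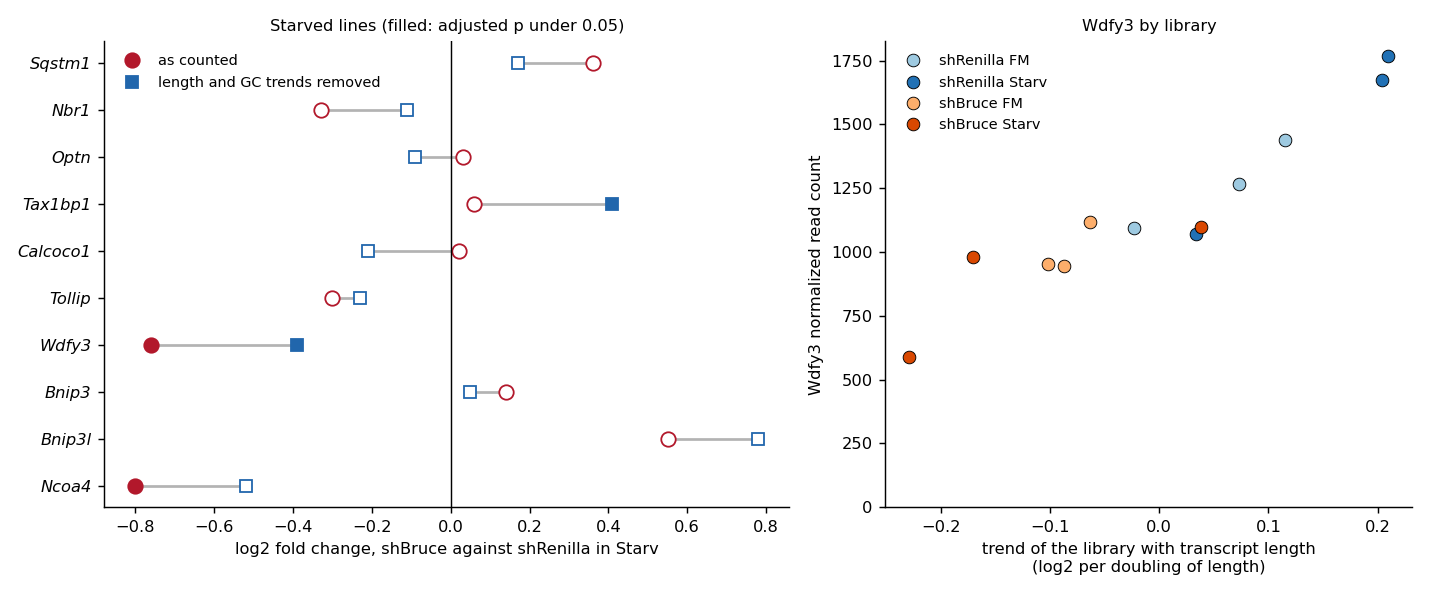
Left, log2 fold change of each receptor gene between the starved lines as counted (circles) and with the length and GC trends of each library removed (squares), filled where the adjusted p is under 0.05. Right, Wdfy3 normalized read count of each of the 12 libraries against the trend of that library with transcript length, from -0.229 to 0.21 log2 units per doubling of length, coloured by condition.

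Sqstm1 was higher in the starved knockdown line in every library, at 14265 to 16659 against 11333 to 12779 normalized read counts, but the log2 fold change of 0.36 ± 0.13 (SE) missed the level (edgeR adjusted p = 0.056) and passed it in 4 of 22 alternatives. Nbr1 leaned the other way, with a log2 fold change of -0.33 (95% confidence interval -0.70 to 0.04) that was called only without shBruce Starv replicate 3 (-0.59, adjusted p = 0.00375). Tollip (-0.30, -0.59 to -0.01) had libraries that did not overlap and an edgeR adjusted p of 0.113. Bnip3l (0.55, -0.02 to 1.12), Bnip3 (0.14, -0.50 to 0.77), Tax1bp1 (0.06, -0.15 to 0.27), Optn (0.03, -0.31 to 0.38) and Calcoco1 (0.02, -0.34 to 0.39) did not pass.

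The partners Nbr1 and Sqstm1 can also be compared within a library. There were 0.316 ± 0.0378 Nbr1 reads per Sqstm1 read in shRenilla FM and 0.309 ± 0.041 in shRenilla Starv, against 0.23 ± 0.0333 in shBruce FM and 0.187 ± 0.0425 in shBruce Starv (SD, n = 3). The shBruce libraries ran from 0.145 to 0.262 and the shRenilla libraries from 0.262 to 0.338, meeting at 1 library of each line, and the difference was not tested. Such a ratio keeps the length trend of its library, and the transcripts have 4789 (Nbr1) and 2673 bases (Sqstm1). With the trends removed, log2 fold changes between the lines went from -0.21 to -0.08 (Nbr1) and 0.27 to 0.12 (Sqstm1) in FM. Between the starved lines they went from -0.33 to -0.11 and from 0.36 to 0.17. Reads of Bnip3l per read of Bnip3 ran from 6.54 to 13.1 and overlapped among all groups.

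Other genes of the same pathway were read from lists. Of 14 tested other receptors, 4 were higher on starvation of the control line, led by Stbd1, the glycogen receptor (log2 fold change 1.48), Fam134a (0.67) and Fam134c (0.48), the last 2 being receptors for the endoplasmic reticulum. On starvation of the knockdown line 4 were higher, led by Stbd1 (1.65), Fam134a (0.87) and Sec62 (0.76), and 1 was lower, Rtn3 (-0.37). Between the starved lines Sec62 (0.95) and Phb2 (0.56) were higher and Atl3 (-0.94) was lower in shBruce MEFs. Over all genes, 9.69% were called higher on starvation of the control line and 12.4% on starvation of the knockdown line. Between the starved lines 12.8% were called higher and 11.2% lower. Counts this small do not set the other receptors apart from these shares.

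Of 5 ATG8 genes, whose products the receptors bind, Map1lc3b and Gabarapl1 rose on starvation of either line, with log2 fold changes of 0.71 and 0.60 in shRenilla and 1.25 and 0.71 in shBruce MEFs. Between the starved lines 3 of 5 were higher in shBruce MEFs, Map1lc3a (1.23), Gabarapl2 (0.94) and Gabarap (0.49), beside 12.8% of all genes called higher. Within shBruce Starv the ATG8 genes stood apart by library, with a median log2 difference from the other 2 libraries of 0.56 in replicate 1 (4 of 5 above 0) and -0.53 in replicate 3 (0 of 5 above 0). The calls named here between the starved lines, like those of all other genes in that comparison, were lost without shRenilla Starv replicate 1 or 2. Of the cargo genes, the ferritin chains Fth1 (0.88) and Ftl1 (0.63), whose receptor mRNA Ncoa4 was lower, were higher in shBruce MEFs than in shRenilla MEFs after starvation. Over all genes, calls between the starved lines went from 2907 to 974 of 12154 when the length and GC trends of each library were removed. The part of those trends in the values of the listed genes was not tested.

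Of 11 tested kinases, ubiquitin enzymes and adaptors that act on the receptors, 0 were called on starvation of the control line and Rb1cc1 (0.74), the FIP200 gene of the initiating kinase complex, rose in the knockdown line. With both lines starved, Keap1 (0.49), whose product binds p62, was higher, and Tank (-0.76), Traf6 (-0.52) and Azi2 (-0.50) were lower in shBruce MEFs. Over all genes, 17.0%, 23.0% and 23.9% were called in these comparisons, in that order. None of the other receptors, ATG8 genes, ferritin chains, kinases, ubiquitin enzymes and adaptors tested was called by edgeR in FM or in the interaction.

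Sqstm1 is a known NRF2 target and Bnip3 and Bnip3l are HIF targets, and other targets of both were read from lists. The part of NRF2 or HIF in the receptor values was not tested. Of 10 NRF2 target genes, 2 were higher (Slc7a11, 3.12, and Hmox1, 0.70) and 1 lower (Txnrd1, -0.49) on starvation of the control line, and 1 was higher (Slc7a11, 2.24) and 4 lower in the knockdown line, led by G6pdx (-0.72), Txnrd1 (-0.67) and Srxn1 (-0.45). Of 18 HIF target genes, 4 were higher and 4 lower in the control line, with Ddit4 (1.68), Ndrg1 (1.43) and Mxi1 (1.10) against Adm (-2.68), Slc2a1 (-0.82) and Hk2 (-0.54). In the knockdown line 3 were higher, Ndrg1 (1.27), Ddit4 (1.26) and Mxi1 (0.93), and 6 lower, led by Adm (-2.67), Egln3 (-1.09) and Slc2a1 (-0.82). In the comparison of the starved lines 0 NRF2 target genes and 1 HIF target gene, Ankrd37 (0.91), were called. Beside these counts, 17.0% of all genes were called on starvation of the control line, 23.0% of the knockdown line and 23.9% between the starved lines.

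Across the 12 libraries, the gene whose log2 level ran most alike with Sqstm1 was Stx5a (Pearson's r = 0.988), that for Nbr1 was Dctn4 (0.986) and that for Calcoco1 was Stard5 (0.975). For Wdfy3 it was Arhgef12 (0.988), for Tollip Ppp1cb (0.972), for Bnip3l Nfib (0.969) and for Ncoa4 1110037F02Rik (0.966). Optn (Pycr1, 0.928), Tax1bp1 (Phf20l1, 0.925) and Bnip3 (Fam114a1, 0.923) had less close neighbours. These values are descriptions over libraries that share medium, line, depth and length trend, and each nearest gene is the highest of 9357 genes compared (9358 for Ncoa4).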

How the data were processed

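RNA-Seq was analysed in 12 libraries. The authors isolated total RNA, made poly(A) libraries, sequenced single-end reads, removed rRNA reads, aligned to mm10 with STAR 2.4.0d and counted with HTSeq 0.5.4p3. The gene annotation and strand setting are not given in the sources used here. The deposited table holds raw read counts per gene symbol, with 0 columns left unused and 27 symbols turned into dates (0.296% of counts). The test was that of edgeR 4.0.16 under R 4.3.3 (TMM, filterByExpr, a mean per group over 12 libraries, two-sided quasi-likelihood test, Benjamini-Hochberg adjustment over 12154 genes, level 0.05). The study used voom and limma, tried here as limma 3.58.1, as was DESeq2 1.42.0. Normalized read counts are counts divided by effective library size relative to the geometric mean. Gene models (GENCODE, GRCm38) were found for 22724 symbols as written and for 933 by an older symbol. Precision is the SD or standard error, since replicates differ beyond counting error. The genes and lists were chosen with earlier results of these data known. Up to 3 rising and 3 falling genes are named per list and comparison, by fold change among those called. Alternatives changed scaling, filter, tool, samples fitted and the length and GC trend (a spline with 4 degrees of freedom), or left out each library. A result of the cargo list is not reported here.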

Additional observations from a re-analysis of the deposited data

How the results depend on the processing

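Of 1090 values of single receptors under the alternatives, 1010 kept their direction and side of the level, 26 lost a call, 20 gained one and 34 changed sign, none of these with a call. The number of receptors called between the starved lines (2) was 0 when only those groups were fitted, 0 with trends removed and a replicate block, and from 0 to 4 with a library left out (0 without shRenilla Starv replicate 1 or 2 or shBruce Starv replicate 2, 1 without shBruce Starv replicate 1, 4 without its replicate 3). Calls over all genes (2907) moved with them, to 0 of 11969, 1 of 12154 and from 0 to 5735. On starvation, fits of only the groups compared called 6 in shRenilla and 1 in shBruce MEFs, beside 3 each (over all genes 5013 of 11954 and 956 of 11787, beside 2061 and 2790), and leaving out a library gave 3 to 4 and 2 to 5. The cause was not tested. No receptor was called in FM or in the interaction under any alternative run. The interaction could not be fitted with only the groups compared.

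Log2 fold changes changed sign with the trends removed, without and with the replicate block, for Tax1bp1 between the lines in FM (0.17 in both), Optn (-0.09 and -0.11) and Calcoco1 (-0.21 and -0.23) between the starved lines, and Tax1bp1 (-0.07 in both) and Ncoa4 (-0.06 in both) on starvation of shRenilla MEFs. With no filter, Calcoco1 between the starved lines was at -3.1e-03 and Ncoa4 on starvation of shRenilla MEFs at -3.6e-03. Tollip on starvation of shBruce MEFs was at 0.03 under upper-quartile scaling. The interaction of Bnip3 was at 0.09 under limma-voom and at 0.02 with the replicate block. With a library left out, the range crossed 0 in FM for Tax1bp1 (-0.09 to 0.01), Bnip3 (-0.45 to 0.40) and Bnip3l (-0.07 to 0.42), between the starved lines for Optn (-0.10 to 0.18) and Calcoco1 (-0.08 to 0.12), on starvation of shRenilla MEFs for Tax1bp1 (-2.1e-03 to 0.10) and Ncoa4 (-0.07 to 0.11), and of shBruce MEFs for Tollip (-0.18 to 0.07) and Wdfy3 (-0.37 to 0.05). In the interaction it did for Sqstm1 (-0.01 to 0.21), Nbr1 (-0.38 to 0.04), Bnip3 (-0.27 to 0.58) and Bnip3l (-0.05 to 0.62).

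Deviations of same-numbered libraries from their group means had a median correlation of -0.02 over 18 pairs, 5 of them over 0.1. For pairs of unlike number it was -0.01 over 36 pairs, 10 of them over 0.1. The correlations ran from -0.456 to 0.347 and from -0.379 to 0.509. With such a spread they cannot tell whether same-numbered libraries were handled together. With the replicate block, 2 receptors were called on starvation of shBruce MEFs (Calcoco1 at 0.51, adjusted p = 0.0545), 3 in shRenilla MEFs and 2 between the starved lines. Over all 12154 genes the block gave 2450, 1770 and 1932 calls in that order, beside 2790, 2061 and 2907 without it. The smallest library held 24 reads of Ncoa4.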
